A study of Homo sapiens with 6 samples.

Results

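The 10 genes described here encode the catalytic subunit of telomerase, proteins that guide telomerase or its RNA, the subunits of the telomere-capping complex shelterin, and a helicase of telomeres. They were chosen by symbol (TERT, WRAP53, TEP1, TERF1, TERF2, TERF2IP, TINF2, ACD, POT1 and RTEL1), each matched 1 gene of the count files, and they are 10 of the 34998 genes with a count. All 10 averaged 5 or more normalized counts and so were among the 19114 genes tested. Poly(A) RNA was sequenced from K562, an established human leukaemia line with erythroid features. In every library the endogenous EP400 gene carried the dTAG degradation tag on all copies, and cells had received 500 nM dTAGV-1, a degrader that removes the tagged protein, for 24 h. EP400 is the scaffold and ATPase subunit of the TIP60 complex. One line expressed WT EP400 from the AAVS1 safe harbour locus (WT, 3 libraries), and the other expressed EP400 without the SANT and HD domains that hold the TRRAP module (Delta-TRRAP, 3 libraries, drawn as ΔTRRAP). The methods of the study describe 1 clone for each line, so that clone and genotype cannot be told apart, and p-values measure only the spread between libraries of these clones. In RNA from whole cultures, fewer cells that express a gene and less of its RNA per cell cannot be told apart either.

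Telomeres end in repeats that DNA polymerases cannot copy to the last base, and telomerase, a reverse transcriptase that carries its own RNA template, adds the repeats back. Shelterin coats these repeats: TERF1 and TERF2 bind the double strand, POT1 binds the single-stranded overhang, and TINF2, ACD and TERF2IP join or tune them, so that the end is not handled as a broken chromosome. Most differentiated cells have little TERT, whereas leukaemia lines such as K562 express it and keep dividing. TRRAP is a docking subunit for transcription factors, MYC among them, and the comparison asks how transcription depends on its attachment to TIP60.

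Between the lines, the genes of telomere maintenance did not move one way. TERT and RTEL1 were lower in Delta-TRRAP by over 2-fold, POT1 and ACD were lower by less, TERF2, TERF2IP and WRAP53 were higher by less than 2-fold, and TERF1, TINF2 and TEP1 did not pass the test. In counts, 4 of the 10 were lower and 3 were higher at an adjusted p of 0.01 (edgeR quasi-likelihood test, Benjamini-Hochberg over all tested genes), against 27.6% lower and 30.7% higher among all tested genes and 58.3% in either direction. A difference of that kind was common in these libraries, and 7 of 10 is near the background. Under scaling by library size alone, the split among the 10 genes turned to 3 lower and 5 higher. The shares of all tested genes given here are those of the main scaling. With a fold change of at least 2 required as well, 2 of the 10 were called, both lower in Delta-TRRAP, where 22.6% of all tested genes were called in either direction and 6.08% were called lower. The libraries of WT and Delta-TRRAP did not overlap for 9 of the 10 genes, with TERF1 as the exception, and did not overlap for 71.1% of all tested genes. The median log2 fold change of the 10 genes (Delta-TRRAP over WT) was -0.02, beside 0.03 for all tested genes, and it was 0.11 under library size scaling, where that of all genes was 0.17.

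**Figure D1:**
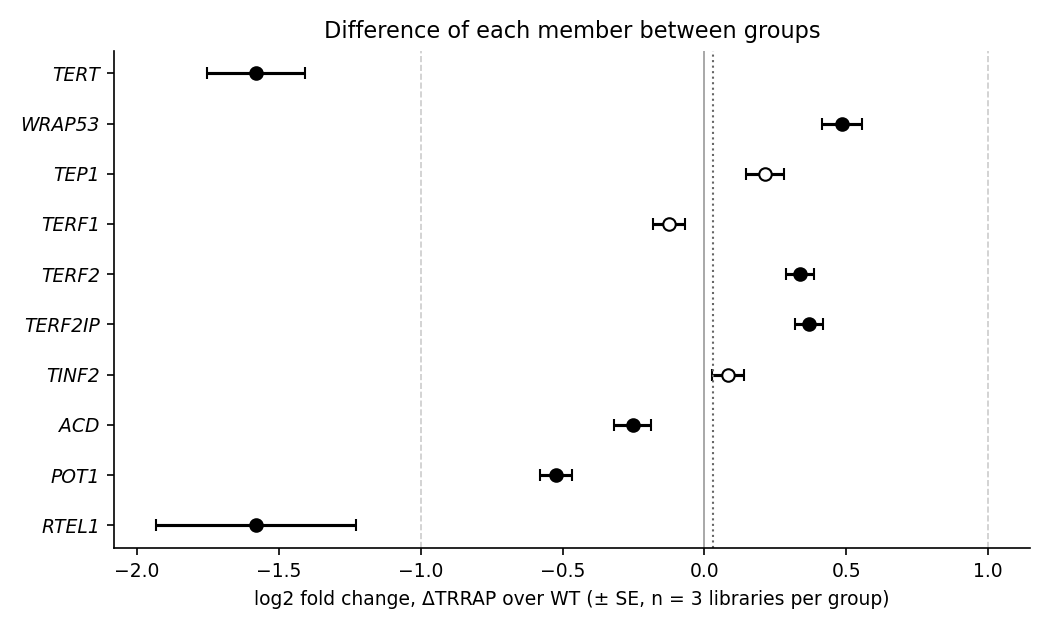
Log2 fold change (Delta-TRRAP over WT, x axis) of each of the 10 genes with its standard error (bars) from 3 libraries per group. Filled points passed an adjusted p of 0.01 and open points did not, dashed lines mark a 2-fold change, and the dotted line marks the median of all tested genes (0.03). Only TERT and RTEL1 (both -1.58) lie beyond the dashed lines.

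TERT, the catalytic subunit of telomerase, had the lowest abundance per length after RTEL1. TERT (ENSG00000164362.20, GRCh38 chromosome 5, 1253147 to 1295068, minus strand) had 135, 122 and 102 reads in WT and 43, 47 and 29 reads in Delta-TRRAP. Divided by the library scale, these were normalized counts of 136.8, 117.0 and 103.8 in WT and 42.2, 45.8 and 30.7 in Delta-TRRAP. Every Delta-TRRAP library lay below every WT library, with a gap wider than the range within either group. The WT mean of 119.2 ± 16.6 stood against 39.6 ± 7.90 in Delta-TRRAP (SD, n = 3 each), which left 33.4% of the WT level, with a log2 fold change of -1.58 ± 0.17 (SE) and an edgeR adjusted p of 8.78e-07. By size of log2 fold change TERT ranked 2740 of the 19114 tested genes. The study itself shows TERT as an example of a changed gene, so this value is not independent of its choice. TERT was also the gene of the set with the smallest counts apart from RTEL1, and its SD was 13.9% of the mean in WT and 19.98% in Delta-TRRAP.

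**Figure D2:**
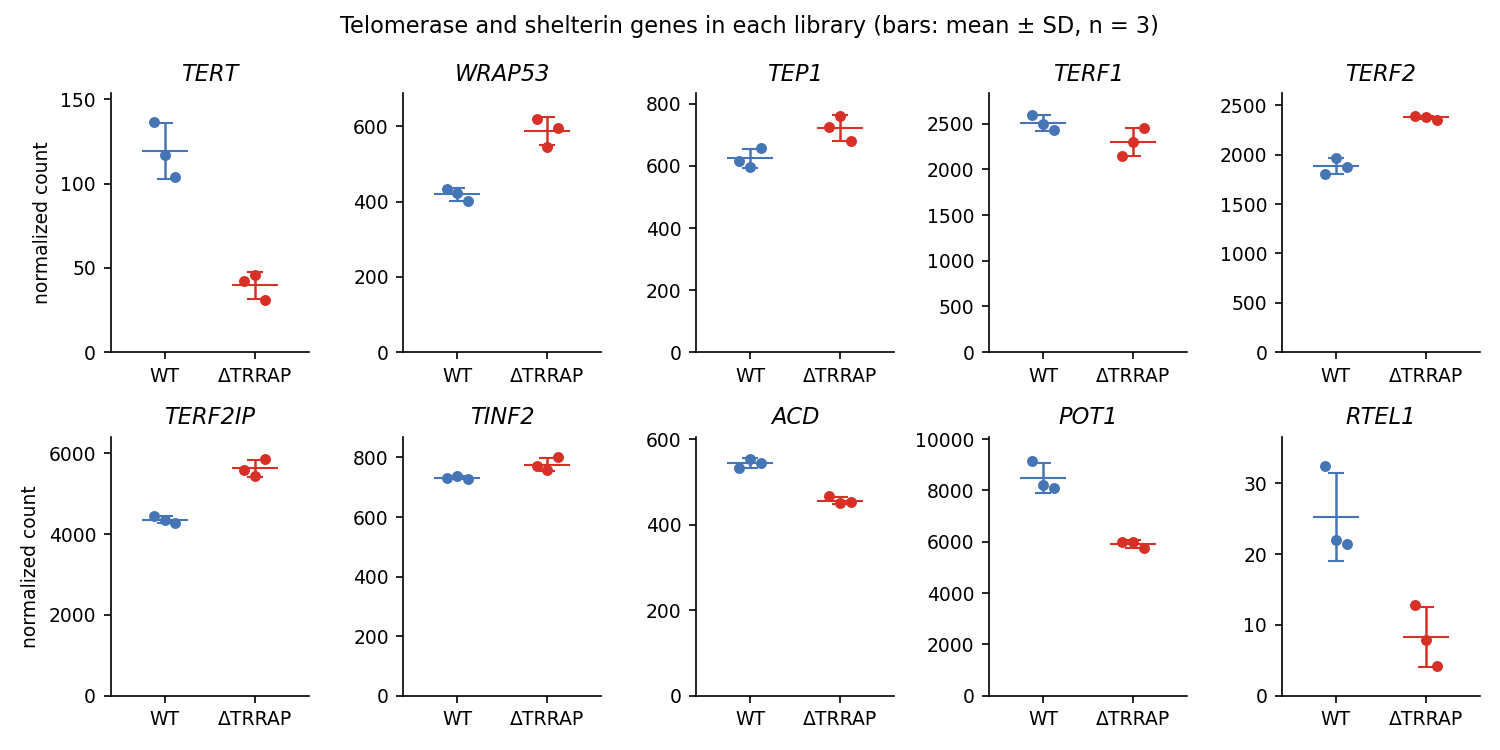
Normalized count (y axis, from 0, its own scale in each panel) of the 10 genes in the 3 WT and 3 Delta-TRRAP libraries. Points are libraries, and the long and short bars are the mean ± SD (n = 3). TERT lies between 103.8 and 136.8 in WT libraries and between 30.7 and 45.8 in Delta-TRRAP libraries, and TERF1 is the gene whose points overlap between groups.

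MYC is a factor that docks on TRRAP, and with its partner MAX it binds the E-box motif CACGTG. The stretch upstream of the TERT start is shown because it holds an E-box. It covers chr5:1295169-1295318 (GRCh38.p14, minus strand, RefSeq), positions -250 to -101 from the start site at 1295068, with the E-box in capitals.

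TERT: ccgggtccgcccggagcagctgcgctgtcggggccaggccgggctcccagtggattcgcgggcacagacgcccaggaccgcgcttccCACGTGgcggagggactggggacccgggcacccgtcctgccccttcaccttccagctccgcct

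The E-box begins 163 bases upstream of the start, and GC boxes (GGGCGG on either strand, the motif of SP1 and SP3) lie 244, 86 and 5 bases upstream. RefSeq promoter windows of 300 bases, from 250 before to 50 after a start, were matched for 8 of the 10 genes (not TERF1 or TERF2), with 12 windows in all. CACGTG, which reads the same on both strands, was in 1 of these 12 windows, that of TERT, and in 7.26% of all 35116 windows. Bases beyond the windows were not searched. GGGCGG was in 9 of the 12 windows and in 45.0% of all windows, and the 2 motifs share no bases. These matches describe letters in the windows and say nothing on whether a factor was bound in these cells.

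Among 18 transcription factors described at the TERT promoter, 11 were lower in Delta-TRRAP, 1 was higher and 6 did not pass the adjusted p, beside 27.6% lower and 30.7% higher among all tested genes. None had a call at a fold change of 2, where 22.6% of all tested genes did. Their median log2 fold change was -0.30, beside 0.03 for all tested genes. The largest differences were those of MXD1, a repressor that competes with MYC for MAX, at -0.92 ± 0.05 (SE, edgeR adjusted p = 9.66e-10), and WT1, a zinc finger factor, at -0.75 ± 0.05 (SE, edgeR adjusted p = 6.35e-09). The 1 factor that was higher was HIF1A, the oxygen-regulated factor, at 0.30 ± 0.05 (SE, edgeR adjusted p = 1.70e-04). The mRNA of MYC had 8769 ± 268 normalized counts in WT and 9016 ± 223 in Delta-TRRAP (SD, n = 3 each), groups that overlapped, with a log2 fold change of 0.04 ± 0.05 (SE) and an edgeR adjusted p of 0.490. MAX, its partner on the E-box, was lower, with a log2 fold change of -0.35 ± 0.05 (SE, edgeR adjusted p = 2.01e-05). HIF1A, MYC and MAX were singled out after their values were seen.

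Of the members that guide telomerase or its RNA, WRAP53 moved the other way and TEP1 did not pass the test. WRAP53, which brings telomerase to Cajal bodies and on to telomeres, is on chromosome 17 (ENSG00000141499.16, 7686071 to 7703502, plus strand). It had normalized counts of 433.7, 423.0 and 400.9 in WT and 619.7, 545.9 and 595.5 in Delta-TRRAP. All Delta-TRRAP libraries were above all WT libraries. WRAP53 rose from 419.2 ± 16.7 to 587 ± 37.6 (SD, n = 3 each), a log2 fold change of 0.49 ± 0.07 (SE) with an edgeR adjusted p of 2.21e-05.

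TEP1, a large protein that associates with the telomerase RNA and with vault particles, is on chromosome 14 (ENSG00000129566.13, 20365667 to 20413501, minus strand). Its normalized counts were 615, 598 and 659 in WT and 726, 761 and 680.1 in Delta-TRRAP. The groups did not overlap, with a narrow gap between the highest WT library and the lowest Delta-TRRAP library. The mean was 624 ± 31.8 in WT and 722 ± 40.7 in Delta-TRRAP (SD, n = 3 each), and the log2 fold change of 0.21 ± 0.07 (SE) just missed the threshold with an edgeR adjusted p of 0.0104. Single libraries decided this, since the adjusted p was 0.00945 without WT replicate 3 and 0.00346 without Delta-TRRAP replicate 3.

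Genes listed for other telomerase subunits and for assembly and RNA maturation factors were mostly lower. Of 19 genes listed for the telomerase RNA, the dyskerin complex, assembly and RNA maturation, 18 were tested, of which 13 were lower, 1 was higher and 4 did not pass, where all tested genes had 27.6% lower and 30.7% higher. Their median log2 fold change was -0.43, beside 0.03 for all tested genes. Of the 18, 1 was called at 2-fold, where 22.6% of all tested genes were called in either direction and 6.08% were called lower. It was ZCCHC8, a subunit of the nuclear exosome targeting complex that acts in maturation of the telomerase RNA, at -1.02 ± 0.05 (SE, edgeR adjusted p = 1.17e-10). The fold of ZCCHC8, 2.03, was barely past the threshold of 2. The next largest was RUVBL2, an ATPase that acts in telomerase assembly and is also a TIP60 subunit, at -0.93 ± 0.05 (SE, edgeR adjusted p = 4.44e-10). The 4 proteins of the H/ACA core that holds the telomerase RNA were all lower, with log2 fold changes of -0.42 for DKC1, -0.46 for NHP2, -0.62 for NOP10 and -0.56 for GAR1. The exception that was higher was SMG6, a nuclease of nonsense-mediated decay that also associates with telomerase, at 0.29 ± 0.07 (SE, edgeR adjusted p = 0.00200). The core proteins and SMG6 were singled out after their values were seen. TERC, the template RNA, had 0 reads in all 6 libraries. It carries no poly(A) tail, so that selection for poly(A) RNA leaves its level unmeasured.

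**Figure D3:**
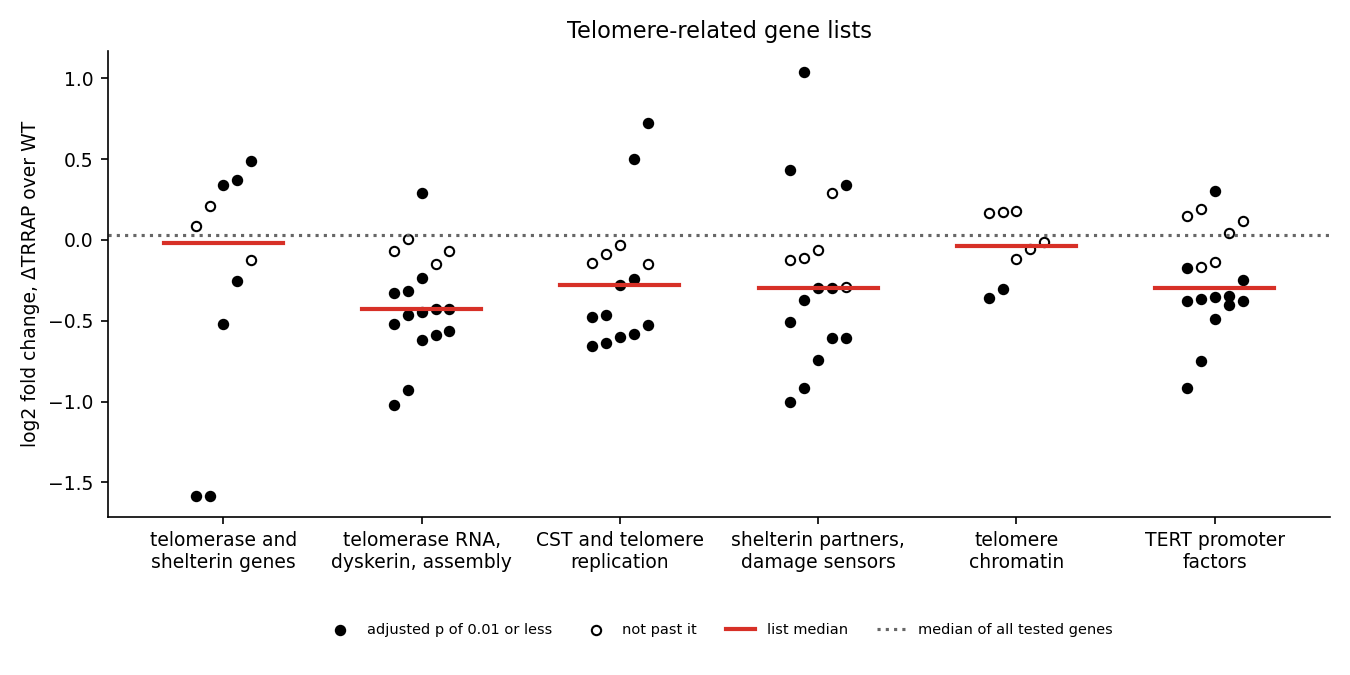
Log2 fold change (Delta-TRRAP over WT, y axis) of every tested gene in the set of 10 and in 5 related lists. Filled points passed an adjusted p of 0.01, open points did not, red bars are list medians, and the dotted line is the median of all tested genes (0.03). The list medians are -0.02 for the 10 genes, -0.43 for the dyskerin complex with assembly and maturation factors, and -0.28 for end replication. They are -0.29 for shelterin partners, -0.03 for telomere chromatin and -0.30 for TERT promoter factors.

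Within shelterin, the proteins that bind double-stranded repeats differed from each other. TERF1, which restrains telomere lengthening (ENSG00000147601.14, chromosome 8, 73008856 to 73048123, plus strand), had normalized counts of 2599, 2499 and 2429.7 in WT and 2150.5, 2301 and 2449.8 in Delta-TRRAP. Delta-TRRAP replicate 3 lay above the lowest WT library, so the groups overlapped. The means were 2509 ± 85.1 and 2300.3 ± 149.7 (SD, n = 3 each), and the log2 fold change of -0.13 ± 0.06 (SE) did not pass (edgeR adjusted p = 0.0616). Without Delta-TRRAP replicate 3 it was -0.18 and passed with an adjusted p of 0.00836, and under scaling by library size alone its sign turned to 0.0073.

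TERF2, which folds the telomere end into a loop and keeps ends from being joined, is on chromosome 16 (ENSG00000132604.11, 69355567 to 69408571, minus strand). It had normalized counts of 1805, 1965 and 1878 in WT and 2391, 2386 and 2356 in Delta-TRRAP. The Delta-TRRAP libraries were closely grouped and all above WT. The mean rose from 1882 ± 80.1 to 2378 ± 19.1 (SD, n = 3 each), with a log2 fold change of 0.34 ± 0.05 (SE) and an edgeR adjusted p of 2.79e-05.

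TERF2IP (RAP1), the partner that TERF2 carries to telomeres, rose with TERF2 and by a like amount. TERF2IP (ENSG00000166848.7, chromosome 16, 75647773 to 75761872, plus strand) had normalized counts of 4461, 4346 and 4278 in WT and 5597, 5433 and 5854 in Delta-TRRAP. Every Delta-TRRAP library was above WT. The mean went from 4362 ± 92.5 to 5628 ± 212 (SD, n = 3 each), a log2 fold change of 0.37 ± 0.05 (SE) with an edgeR adjusted p of 9.80e-06. KARS, the lysyl-tRNA synthetase gene that overlaps its start on the opposite strand, was lower, with a log2 fold change of -0.40 ± 0.05 (SE, edgeR adjusted p = 2.70e-06). The stretch before the start of TERF2IP, the most abundant of the 10 genes per length (RPKM) in Delta-TRRAP, is shown with its GC box in capitals. It covers chr16:75647666-75647772 (GRCh38.p14, plus strand, RefSeq), positions -107 to -1 from the start.

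TERF2IP: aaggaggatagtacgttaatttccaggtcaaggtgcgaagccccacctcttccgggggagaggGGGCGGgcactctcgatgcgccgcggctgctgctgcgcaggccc

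The proteins that reach the single strand were lower or did not pass. TINF2 (TIN2), the hub that ties both double-strand binders to the rest (ENSG00000092330.18, chromosome 14, 24238286 to 24242663, minus strand), had normalized counts of 731.6, 737.7 and 728.5 in WT and 769.8, 758.4 and 800.7 in Delta-TRRAP. The Delta-TRRAP libraries were above WT without overlap, yet the means of 733 ± 4.67 and 776 ± 21.9 (SD, n = 3 each) were near each other. The difference on the log2 scale, 0.08 ± 0.06 (SE), did not pass (edgeR adjusted p = 0.210). It passed under scaling by library size alone, at 0.22 with an adjusted p of 0.00378. Exons of other genes on the opposite strand, GMPR2 among them, face 27.9% of its exon bases.

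ACD (TPP1), which links TINF2 to POT1 and recruits telomerase, is on chromosome 16 (ENSG00000102977.16, 67657512 to 67660810, minus strand). It had normalized counts of 533, 554 and 544 in WT and 466, 449 and 454 in Delta-TRRAP. The groups were tight and apart. ACD fell from 544 ± 10.7 to 456 ± 8.48 (SD, n = 3 each), a log2 fold change of -0.25 ± 0.06 (SE, edgeR adjusted p = 0.00261). The call depended on a single library, since the adjusted p was 0.0121 without WT replicate 2, and on scaling, with 0.115 under library size alone.

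POT1, which covers the single-stranded overhang and shuts out the ATR damage signal, had the largest fall among the abundant members. POT1 (ENSG00000128513.16, chromosome 7, 124822386 to 124929983, minus strand) had normalized counts of 9165, 8228 and 8096 in WT and 5997, 6006 and 5743 in Delta-TRRAP. All Delta-TRRAP libraries lay below all WT libraries. The mean fell from 8496 ± 583 to 5915 ± 149.7 (SD, n = 3 each), with a log2 fold change of -0.52 ± 0.06 (SE) and an edgeR adjusted p of 7.93e-07. The antisense gene that starts at its promoter, POT1-AS1, rose, with 168 ± 12.9 normalized counts in WT and 256 ± 16.6 in Delta-TRRAP (SD, n = 3 each), a log2 fold change of 0.61 ± 0.10 (SE, edgeR adjusted p = 5.48e-05). Counting was by strand, and POT1-AS1 exons face 1.27% of POT1 exon bases. The upstream part of the POT1 promoter window is shown for comparison with that of TERT. It covers chr7:124929984-124930075 (GRCh38.p14, minus strand, RefSeq), with its GC box in capitals. Its positions are -250 to -159 from the RefSeq start site at 124929825, which lies inside the gene span given above. That span ends at 124929983, so the stretch shown lies directly upstream of it. The whole window has no E-box.

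POT1: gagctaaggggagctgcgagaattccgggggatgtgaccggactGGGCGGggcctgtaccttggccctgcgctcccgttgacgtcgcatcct

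Ratios within a library do not depend on the scaling between libraries. The ratio of POT1 to TERF2 (RPKM, reads per exon length and library depth) was 2.93 ± 0.312 in WT and 1.61 ± 0.0281 in Delta-TRRAP (SD, n = 3 each), with no overlap. TERF1 to TERF2 went from 0.479 ± 0.0328 to 0.347 ± 0.0252, also with no overlap. TERF2IP to TERF2 was 2.96 ± 0.172 in WT and 3.02 ± 0.136 in Delta-TRRAP, values that overlapped. POT1 and TERF1 were thus each lower relative to TERF2 in every Delta-TRRAP library, while the ratio of TERF2IP to TERF2 differed by less than the spread between libraries. TINF2 to ACD went from 0.990 ± 0.0165 to 1.25 ± 0.0421, and POT1 to ACD from 5.77 ± 0.499 to 4.79 ± 0.134, neither with overlap. For telomerase, TERT to DKC1 went from 0.0128 ± 0.00227 to 0.00570 ± 0.00119 and WRAP53 to DKC1 from 0.0444 ± 0.00324 to 0.0833 ± 0.00586 (SD, n = 3 each), again with no overlap. These differences were described and not tested.

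By level per length, the shelterin genes were far more abundant than TERT in both lines. In WT the mean RPKM was 25.4 for TERF2IP, 25.1 for POT1, 8.59 for TERF2, 4.35 for ACD, 4.30 for TINF2, 4.11 for TERF1, 1.79 for WRAP53, 1.41 for TEP1, 0.518 for TERT and 0.0761 for RTEL1. Neighbours in this order were apart in their library ranges except TERF2IP with POT1 and ACD with TINF2. In Delta-TRRAP the mean RPKM was 32.7 for TERF2IP, 17.4 for POT1, 10.9 for TERF2, 4.56 for TINF2, 3.77 for TERF1, 3.65 for ACD, 2.51 for WRAP53, 1.63 for TEP1, 0.172 for TERT and 0.0249 for RTEL1, and only TERF1 with ACD overlapped. So TERF2IP and POT1, which were level in WT, were apart in Delta-TRRAP, and TERT ranked 9 of 10 in both. TERT lay at the 33.2nd percentile of tested genes in WT and at the 14.5th in Delta-TRRAP. The RPKM of RTEL1 is too low, since reads on exons shared with a read-through gene (described below) were not counted. Over its unshared exon bases it was 0.162 in WT and 0.0528 in Delta-TRRAP, still rank 10. The length used matters for this order. With the longest transcript in place of all exons, POT1 at an RPKM of 55.3 stood above TERF2IP at 52.6 in WT, and TERF1 at 15.2 ranked 4, next to TERF2 at 16.2.

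**Figure D4:**
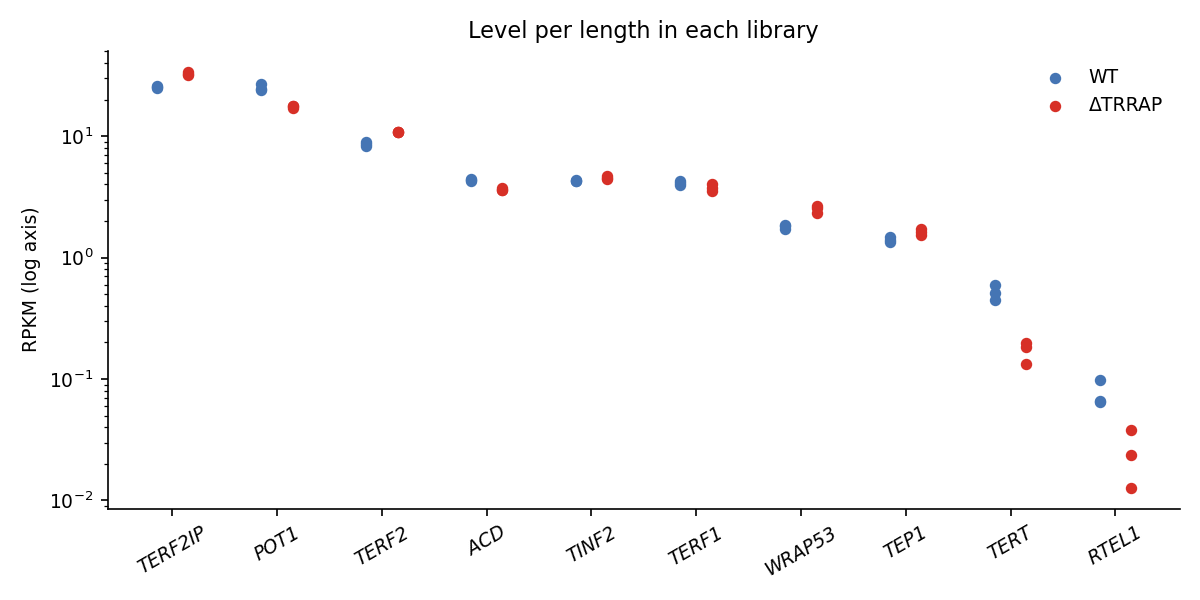
Level per length (RPKM, log axis) of the 10 genes in each of 3 WT and 3 Delta-TRRAP libraries, ordered by the WT mean. TERF2IP and POT1 overlap near 25 in WT and separate in Delta-TRRAP (32.7 and 17.4), and TERT falls from 0.518 to 0.172.

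RTEL1, the helicase that opens telomere loops during replication, was the rarest member and is uncertain. RTEL1 (ENSG00000258366.8, chromosome 20, 63657810 to 63696253, plus strand) had 32, 23 and 21 reads in WT and 13, 8 and 4 reads in Delta-TRRAP. The groups did not overlap, but each library held few reads. Mean normalized counts were 25.3 ± 6.19 in WT and 8.26 ± 4.28 in Delta-TRRAP (SD, n = 3 each), with a log2 fold change of -1.58 ± 0.35 (SE) and an edgeR adjusted p of 9.72e-04. Of its exon bases, 52.9% are shared on the same strand with the read-through gene RTEL1-TNFRSF6B, and reads that fit both genes count for neither in the union mode used. RTEL1-TNFRSF6B had 58, 52 and 61 reads in WT and 31, 24 and 31 in Delta-TRRAP, a log2 fold change of -0.98 ± 0.20 (SE, edgeR adjusted p = 3.85e-04). With both genes summed, the libraries held 90, 75 and 82 reads in WT and 44, 32 and 35 in Delta-TRRAP. The log2 fold change of the sum was -1.14 ± 0.18 (SE, edgeR adjusted p = 3.25e-05), a smaller fall than that of RTEL1 alone. The sum still leaves out reads that fit both genes, so the level of RTEL1 RNA was not measured in full.

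RTEL1 also lies among genes that were lower as a group. Genes that overlap a member, here RTEL1-TNFRSF6B, were left out of all neighbourhoods. Within 1 Mb of the start of RTEL1, 40 other genes without overlap were tested, with a median log2 fold change of -0.64. Of these, 26 were lower and 1 was higher, beside 27.6% lower and 30.7% higher among all tested genes. Within 250 kb the median of 16 genes was -0.71. STMN3, a microtubule regulator whose gene starts 0.128 kb away, had a log2 fold change of -2.10, and SLC2A4RG, a transcription factor gene, had -1.79. ARFRP1 had -0.66, PPDPF -0.47, GMEB2 -0.36 and HELZ2 -0.32 within the same 250 kb, all past the adjusted p. The part of this neighbourhood in the value of RTEL1 was not tested.

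The genes around TERT differed in both directions. Of 20 tested genes within 1 Mb, 7 were lower and 8 were higher, near the shares of 27.6% and 30.7% over all tested genes, and their median log2 fold change was 0.29. Of the 4 within 250 kb, CLPTM1L at -0.45 and LPCAT1, a phospholipid enzyme, at -1.16 were lower. SLC6A19 at 1.86 and SLC12A7 at 2.43, both transporter genes with under 10 normalized counts in WT, were higher. TERT therefore fell by more than each of the 4. For the other members the median log2 fold change of neighbours within 1 Mb was -0.16 for TERF1 (10 genes), 0.11 for TERF2 (29 genes), 0.11 for TERF2IP (18 genes), 0.42 for TINF2 (48 genes), 0.66 for POT1 (3 genes), 0.02 for ACD (67 genes), -0.09 for WRAP53 (67 genes) and -0.06 for TEP1 (23 genes). Within 250 kb some of these medians moved, to 2.73 for POT1 (2 genes), 0.07 for TINF2 (32 genes), -0.35 for TEP1 (9 genes) and 0.19 for TERF1 (2 genes). The 2 near POT1 had few reads. LINC02830 had mean normalized counts of 0.339 in WT and 12.6 in Delta-TRRAP, and EEF1GP1 had 14.6 and 23.1. POT1-AS1 overlaps POT1 and was left out. RTEL1 had the lowest median of neighbours among the 10 members in both windows.

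**Figure D5:**
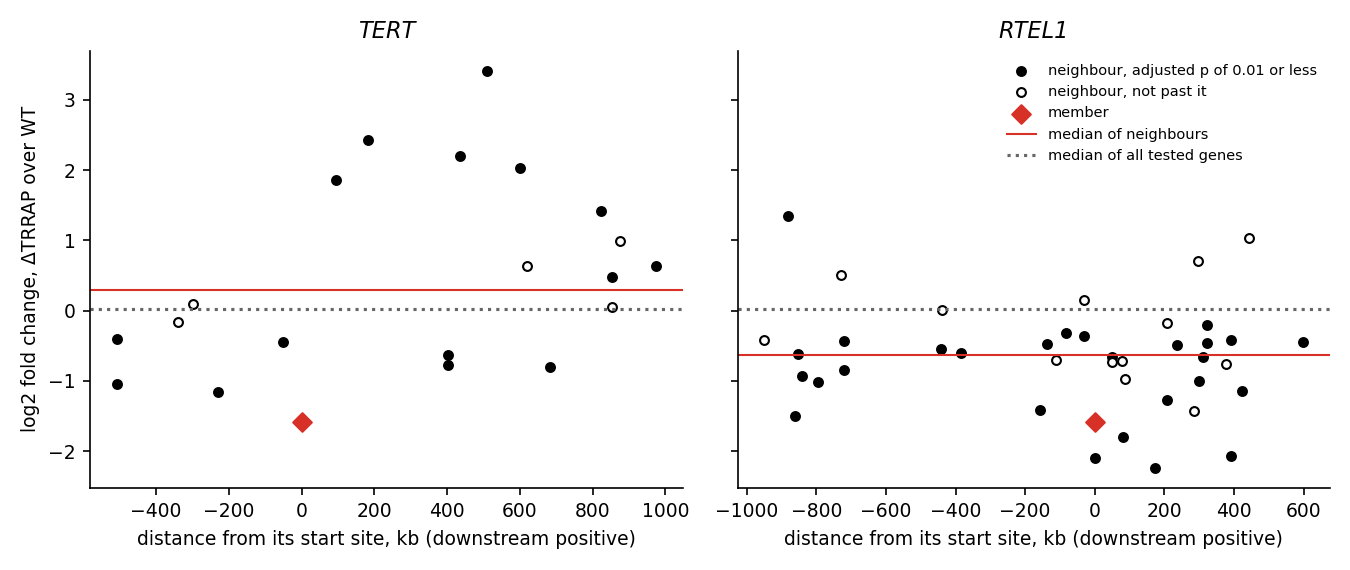
Log2 fold change (Delta-TRRAP over WT, y axis) of tested genes within 1 Mb of the start of TERT (left) and RTEL1 (right), by distance in kb (x axis). Genes that overlap TERT or RTEL1 are left out. Diamonds are the 2 genes themselves, filled points passed an adjusted p of 0.01, red lines are medians of the neighbours (0.29 and -0.64), and the dotted line is the median of all tested genes (0.03). Around RTEL1 most points lie below the dotted line, and around TERT they lie on both sides.

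The lists of telomere genes beyond the 10 were described from the same fit. For end replication (the CST complex, DNA polymerase alpha-primase, nucleases and helicases), 15 of 16 genes were tested, with 9 lower, 2 higher and 4 not past the adjusted p, against shares of 27.6% and 30.7% over all tested genes. None was called at a fold change of 2, against 22.6% of all tested genes, and the median log2 fold change was -0.28. STN1, the CST subunit that ends telomerase extension and starts fill-in synthesis, rose by 0.72 ± 0.08 (SE, edgeR adjusted p = 7.56e-07), and DNA2, a nuclease and helicase of replication, had -0.66 ± 0.05 (SE, edgeR adjusted p = 1.64e-08). The other gene that rose was POLA2, a subunit of DNA polymerase alpha, at 0.50 ± 0.10 (SE, edgeR adjusted p = 2.90e-04), named after its value was seen. TEN1, the third CST subunit, had mean normalized counts of 2.65 in WT and 2.36 in Delta-TRRAP and was not tested.

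For factors that bind or modify shelterin and damage sensors that it holds off, 17 of 17 genes were tested, with 9 lower, 3 higher and 5 not past the adjusted p (all tested genes: 27.6% lower, 30.7% higher), and the median was -0.29. At a fold change of 2, 1 of the 17 was called lower and 1 higher, where 22.6% of all tested genes were called in either direction. TNKS1BP1, a binding partner of the tankyrase that releases TERF1 from telomeres, was called lower at -1.0 ± 0.06 (SE, edgeR adjusted p = 5.50e-10). ERCC4 (XPF), a nuclease subunit that trims overhangs of uncapped ends, was called higher at 1.04 ± 0.08 (SE, edgeR adjusted p = 9.41e-09). Both calls were close to the threshold of 2, with folds of 2.01 for TNKS1BP1 and 2.05 for ERCC4. Of 8 genes of telomere chromatin, 2 were lower, a share near the 27.6% of all tested genes, and 6 did not pass, with a median of -0.03. The 2 were ZBTB10, at -0.36 ± 0.06 (SE, edgeR adjusted p = 5.51e-05), and ZBTB48, at -0.30 ± 0.06 (SE, edgeR adjusted p = 2.51e-04), which both bind telomere repeats. ATRX and DAXX, whose loss goes with telomere lengthening without telomerase, had log2 fold changes of -0.01 and -0.12, with edgeR adjusted p of 0.888 and 0.0640, and were singled out after their values were seen. Under library size scaling the median of telomere chromatin turned to 0.098, with 1 gene lower and 3 higher. The medians of the other 4 lists stayed negative, between -0.29 and -0.14. With that scaling the median of all tested genes was 0.17, and the shares above are those of the main scaling.

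The 5 tested genes whose level per length over the 6 libraries lay closest to that of TERT (Euclidean distance of log2(RPKM + 0.1)) were AC022075.1, RYR1, IL12RB2, RPS6KA5 and LIMD2. Their distances were 0.372, 0.388, 0.431, 0.437 and 0.456, and their log2 fold changes were -1.59, -1.70, -1.25, -1.44 and -1.69. The choice used all 6 libraries, so a level and a difference like those of TERT were fixed by it. None of the 5 lies on chromosome 5.

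Reads in genes numbered 39966818 to 42616061 per WT library and 35076835 to 38491513 per Delta-TRRAP library. EP400 mRNA, which adds the tagged locus and the transgene, had a log2 fold change of 0.14 ± 0.11 (SE, edgeR adjusted p = 0.272) and is no measure of the protein. The labels call the cells lymphoblasts. Of 11 B and T lymphoid markers 6 had a mean under 5 normalized counts, MS4A1 among them at 0 in all libraries. The 11 summed to 508.7 to 520.9 in WT libraries and to 483.5 to 519.4 in Delta-TRRAP libraries. CD3D made up most of these sums, with a mean of 434 in WT and 387 in Delta-TRRAP. Of the 5 lymphoid markers tested, none was lower and 1 was higher past the adjusted p, beside 27.6% and 30.7% of all tested genes. It was EBF1, with a mean of 1.68 in WT and 28.5 in Delta-TRRAP. CD3D and EBF1 were singled out after their values were seen. All 11 erythroid markers were detected, and summed to 224513 to 226754 in WT libraries and to 152342 to 157251 in Delta-TRRAP libraries. TFRC made up most of these sums, with a mean of 192094 in WT and 90173 in Delta-TRRAP, and was singled out after its value was seen. Of the 11, 5 were higher and 3 were lower past the adjusted p, beside 30.7% higher and 27.6% lower among all tested genes. Of 15 fibroblast markers, 6 had a mean under 5, LUM and PDGFRA among them at 0 in all libraries, and the sums were 2159 to 2384 in WT libraries and 14237 to 18613 in Delta-TRRAP libraries. Of the 8 fibroblast markers tested, 5 were higher and 1 was lower past the adjusted p, against the same shares over all tested genes (30.7% and 27.6%). The part of these shifts in the values of the telomerase and shelterin genes was not tested.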

How the data were processed

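Poly(A) RNA-seq libraries of 3 WT and 3 Delta-TRRAP samples were grouped by their labels. The authors deposited raw counts per gene, made by alignment to hg38 with STAR, which kept only reads with 1 position, and by htseq-count 2.0.2 (reverse strand, union mode, GENCODE 32). A deposited table of normalized counts, with 3 columns of another condition, and a table of the authors' own fold changes and adjusted p-values were not used.

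Counts were tested with edgeR 4.0.16 (R 4.3.3; TMM scaling, quasi-likelihood F test, group as the only term) for genes that averaged 5 or more normalized counts, with Benjamini-Hochberg adjustment over all 19114 genes. Calls required an adjusted p up to 0.01 and a 2-fold change, the thresholds of the study. The test was checked on simulated counts. Normalized counts are counts over each library's TMM-scaled size, which was divided by the geometric mean of the 6 sizes. RPKM used exon lengths of GENCODE 44 on GRCh38, which matched 19041 tested genes. RPKM distances used a pseudocount of 0.1. Depth was 35076835 to 42616061 counts per library, and means of a few reads, as for RTEL1, are correspondingly imprecise.

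The members and lists were chosen with earlier results of these data known. Of each list, the called genes and the 2 largest differences past the adjusted p were named, and of the neighbours of TERT and RTEL1 up to 6 within 250 kb past the adjusted p. Alternatives were DESeq2 1.42.0, limma-voom (limma 3.58.1), other scalings, filters and a fold of 1.5, the replicate number as a block, other lengths and windows, and leaving out each library. The sum of RTEL1 with its read-through gene and the length without shared exons were added after the data were seen.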

Additional observations from a re-analysis of the deposited data

How the results depend on the processing

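The log2 fold changes of TERT, POT1, TERF2, TERF2IP and WRAP53 kept their direction and passed the adjusted p under all 14 alternatives, with ranges of -1.69 to -1.44, -0.56 to -0.39, 0.30 to 0.47, 0.34 to 0.50 and 0.44 to 0.62. RTEL1 ranged from -2.04 to -1.29 where it was tested alone, and was -1.14 when summed with its read-through gene. A mean normalized count of at least 50 left RTEL1 untested, so 1 member was called. There 2 were lower and 4 higher past the adjusted p, as ACD was lost at 0.0203 and TEP1 passed at 0.00148. TMM scaling was recomputed on the genes kept. Every member tested had a higher log2 fold change there than in the main fit, by a like amount. ACD went from -0.25 to -0.18 and TEP1 from 0.21 to 0.28. Scaling by library size alone, which raised the median of all genes by 0.138, gave 5 members higher past the adjusted p, as TINF2 and TEP1 passed, and turned TERF1 to 0.0073. Upper quartile scaling raised that median by 0.101, and ACD missed the threshold at 0.0514 while TEP1 passed at 4.81e-04. Relative to the median of all genes, the log2 fold changes were -1.61 for TERT, -0.16 for TERF1 and 0.05 for TINF2. Same-numbered libraries did not deviate together (correlations of 0.087, -0.084 and -0.192), so the numbers do not pair them. With the replicate block TERT had -1.59 (edgeR adjusted p = 3.24e-06), and the counts of members called, lower and higher were the same as without it. Within 250 kb the neighbour median was 0.70 for TERT, 2.73 for POT1 (2 genes with few reads), 0.07 for TINF2, -0.35 for TEP1 and, with the sign turned, 0.19 for TERF1. With exon bases not shared on the same strand, RTEL1 had an RPKM of 0.162 in WT and 0.0528 in Delta-TRRAP. Depth limits RTEL1 and TERT most, and with 1 clone per line no alternative separates clone from genotype.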
